A study of Mus musculus with 4 samples.

Results

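Selp, Sele, Icam1, Icam2, Vcam1, Vwf and Lrg1, 7 genes by which endothelium captures leukocytes and platelets or marks its own activation, were described in nuclei of the mouse heart. They were taken by symbol from the deposited gene table, in which all 7 were found among 44628 identifiers. The series compared 2 control libraries, from mice titled MCM cre/+, with 2 libraries from mice titled PKP2fl/fl MCM cre/+ and labelled as the Pkp2 conditional knockout (cKO), so both groups carried the MCM Cre. All mice were 8 weeks old and had received tamoxifen, and whole hearts were taken 2 weeks after the injection. Each library came from a pool of 2 mice, described as 1 male and 1 female, so an n of 2 in each group counts pools. The counts went against the female part of that description: Xist, the RNA that coats the inactive X chromosome of female cells, had 7, 22, 13 and 28 UMIs (captured RNA molecules) in all of control 1, control 2, cKO 1 and cKO 2, while 4 Y-linked genes together had 5625, 13669, 9053 and 17307. The promoter that drives the Cre is not given in the labels, and the labels' cell type field names cardiomyocytes although all major heart cell classes were present. Pkp2 encodes plakophilin, a desmosome protein of heart muscle.

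Circulating leukocytes first roll on selectins, which bind sugar ligands, and then arrest on members of the immunoglobulin superfamily, which bind leukocyte integrins. P-selectin, encoded by Selp, is stored with von Willebrand factor in the Weibel-Palade bodies of endothelial cells and reaches the surface when these fuse with the membrane, while E-selectin, encoded by Sele, is made after stimulation by cytokines. Icam1 and Vcam1 are classical cytokine-induced adhesion molecules, Icam2 is carried by resting endothelium, and Lrg1 encodes a secreted glycoprotein that modifies endothelial TGF-beta signalling.

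The promoters of Selp, Icam1 and Lrg1, which rose in vascular nuclei (below), and of Sele, the selectin gene next to Selp, are shown so that the bases around their starts can be compared. They are RefSeq entries on GRCm38.p6 with 250 bases before and 50 after the start, and 4 of the 7 genes had an entry (Icam2, Vcam1 and Vwf had none). They cover chr1:164115014-164115313 for Selp, chr1:164047984-164048283 for Sele and chr9:21015690-21015989 for Icam1, all on the plus strand, and chr17:56121897-56122196 on the minus strand for Lrg1. Sequences run 5′ to 3′, and capitals mark matches to the AP-1 motif TGANTCA, the STAT motif TTCNNNGAA on either strand, or to TATAAA on the strand shown.
Selp: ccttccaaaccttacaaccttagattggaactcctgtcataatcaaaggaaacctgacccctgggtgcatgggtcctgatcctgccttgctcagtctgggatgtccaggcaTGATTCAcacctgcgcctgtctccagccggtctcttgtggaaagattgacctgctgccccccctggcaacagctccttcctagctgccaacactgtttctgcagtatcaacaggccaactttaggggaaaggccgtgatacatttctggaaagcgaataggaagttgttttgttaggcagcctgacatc
Sele: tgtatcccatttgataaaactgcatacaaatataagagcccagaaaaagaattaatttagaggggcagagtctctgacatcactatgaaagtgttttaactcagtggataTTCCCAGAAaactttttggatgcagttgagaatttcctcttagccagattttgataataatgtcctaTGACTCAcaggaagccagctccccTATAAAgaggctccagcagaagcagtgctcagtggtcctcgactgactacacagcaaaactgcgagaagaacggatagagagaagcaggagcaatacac
Icam1: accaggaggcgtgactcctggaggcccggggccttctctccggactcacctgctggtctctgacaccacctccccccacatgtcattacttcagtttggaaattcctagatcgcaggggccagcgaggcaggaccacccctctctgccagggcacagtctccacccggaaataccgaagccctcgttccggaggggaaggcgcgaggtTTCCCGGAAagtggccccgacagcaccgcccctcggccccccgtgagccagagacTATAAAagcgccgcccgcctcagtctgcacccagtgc
Lrg1: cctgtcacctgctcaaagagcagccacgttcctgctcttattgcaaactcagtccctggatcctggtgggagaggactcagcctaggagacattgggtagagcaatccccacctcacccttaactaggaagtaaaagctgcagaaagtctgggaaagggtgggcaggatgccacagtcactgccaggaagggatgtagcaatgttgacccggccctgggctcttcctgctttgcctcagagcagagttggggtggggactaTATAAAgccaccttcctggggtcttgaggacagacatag
Counted from the first base shown, Selp and Sele each held 1 AP-1 match, starting at base 112 and base 178. Sele and Icam1 each held 1 STAT match, at base 111 and base 209. TATAAA started at base 202 in Sele, and at base 264 in Icam1 and base 262 in Lrg1, past the RefSeq start of these windows. In Icam1 this match lay before the start that GENCODE gives (21015985). The NF-kB consensus was not matched in any of the 4 windows, which says only that these letters are not there. Among 32851 promoters of the same length 7.81% held the AP-1 motif, 8.30% the STAT motif, 13.6% TATAAA and 4.51% the NF-kB consensus, each on either strand. The share with TATAAA on the strand shown was not counted. A match describes letters and is not a site in use.

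By GENCODE M21 (GRCm38), to which all 7 identifiers were matched, Selp lies on chromosome 1 at 164115264 to 164150026 and Sele at 164048234 to 164057677, 57586 bases apart and on the same strand. Icam1 lies on chromosome 9 (21015985 to 21028817), Icam2 on chromosome 11 (106377656 to 106388075), Vcam1 on chromosome 3 (116109949 to 116129688), Vwf on chromosome 6 (125546774 to 125686679) and Lrg1 on chromosome 17 (56119678 to 56122001). Selp, Icam1 and Vcam1 are overlapped by annotated noncoding genes on the other strand, and the sources used here do not say whether counting used strand, so reads of these could not be told apart from theirs.

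The 4 libraries held 13491201 to 40536562 UMIs (unique molecular identifiers, each standing for 1 captured RNA molecule) and kept 2805 nuclei in control 1, 6024 in control 2, 3642 in cKO 1 and 6313 in cKO 2. The libraries shared at most 2 barcodes in any pair, and none of these was a kept nucleus in both. Pkp2 itself measured 559 and 540 UMIs per 1000000 UMIs of the class in a library (CPM) in control 1 and control 2 cardiomyocytes and 627 and 595 CPM in cKO 1 and cKO 2. The sources used here do not say which stretch of Pkp2 is flanked by loxP sites, so these counts are no check of the deletion. Libraries are named cKO by their label throughout.

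Nuclei were clustered without the 7 genes and named by marker genes, and the names mean nuclei like those cells. The vascular endothelial class held 299, 763, 815 and 1767 nuclei in control 1, control 2, cKO 1 and cKO 2. The endocardial class, the inner lining of the heart chambers, held 68, 184, 92 and 183 nuclei, and the lymphatic endothelial class 26, 79, 82 and 137. Flt1, a VEGF receptor, measured 1788 to 2898 CPM in vascular nuclei, Npr3 716 to 1552 CPM in endocardial nuclei and Prox1 364 to 916 CPM in lymphatic nuclei. They were among the markers used for naming, so these levels describe the classes and do not test the names. In cardiomyocytes these genes measured 31.1 to 38.0 CPM for Flt1, 6.98 to 10.4 CPM for Npr3 and 75.0 to 149 CPM for Prox1.

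By its mean over the 4 libraries the endocardium was the highest class for 5 of the 7 genes, Selp, Icam1, Icam2, Vcam1 and Vwf. With TMM scaling over all classes the highest class of Icam2 became the vascular one. Vwf, which encodes the multimer that tethers platelets, measured 1136 ± 109.9 CPM in control and 1949 ± 129.8 CPM in cKO endocardial nuclei (SD, n = 2 libraries each, as wherever ± is given). In vascular nuclei it measured 149.6 ± 7.80 and 345 ± 71.6 CPM, and in the classes outside the endothelium it did not exceed 92.8 CPM in any library. Every endocardial library, the lowest at 1058 CPM, lay above every library of any other class.

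Vcam1, a ligand of the leukocyte integrin VLA-4, followed the same order at the top. It measured 313 ± 11.1 CPM in control and 613 ± 149 CPM in cKO endocardial nuclei, and the lowest endocardial library (305 CPM) lay above the highest vascular one (145 CPM). Vascular nuclei, at 51.0 ± 26.8 and 123 ± 31.2 CPM, overlapped in range with fibroblasts, at 63.6 ± 4.55 and 72.1 ± 8.70 CPM.

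Selp averaged 94.4 CPM in endocardial, 43.1 CPM in vascular and 15.7 CPM in lymphatic nuclei, and the libraries of these classes overlapped widely, from 0 to 299 CPM in the endocardium and from 2.46 to 118 CPM in vascular nuclei. Icam1, at a mean of 167 CPM in endocardial and 148 CPM in vascular nuclei, and Icam2, at 41.9 and 41.7 CPM, also overlapped between these 2 classes. Both ran lower in cardiomyocytes, at 4.30 to 8.18 CPM for Icam1 and 1.31 to 2.59 CPM for Icam2.

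Lrg1 was highest in lymphatic nuclei. It measured 133 ± 52.3 CPM in control and 311 ± 42.4 CPM in cKO lymphatic nuclei, against 21.7 ± 4.24 and 62.4 ± 6.89 CPM in endocardial and 8.67 ± 1.66 and 62.9 ± 15.4 CPM in vascular nuclei. The lowest lymphatic library (96.1 CPM) was above the highest library of every other class (73.8 CPM). Sele was low, and its 3 highest levels were all in cKO 2, at 17.5 CPM in vascular, 14.2 CPM in mural and 11.5 CPM in endocardial nuclei. Its highest class mean, 7.25 CPM in mural nuclei, rested on 7 UMIs in the controls and 11 in the cKO libraries.

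**Figure D1:**
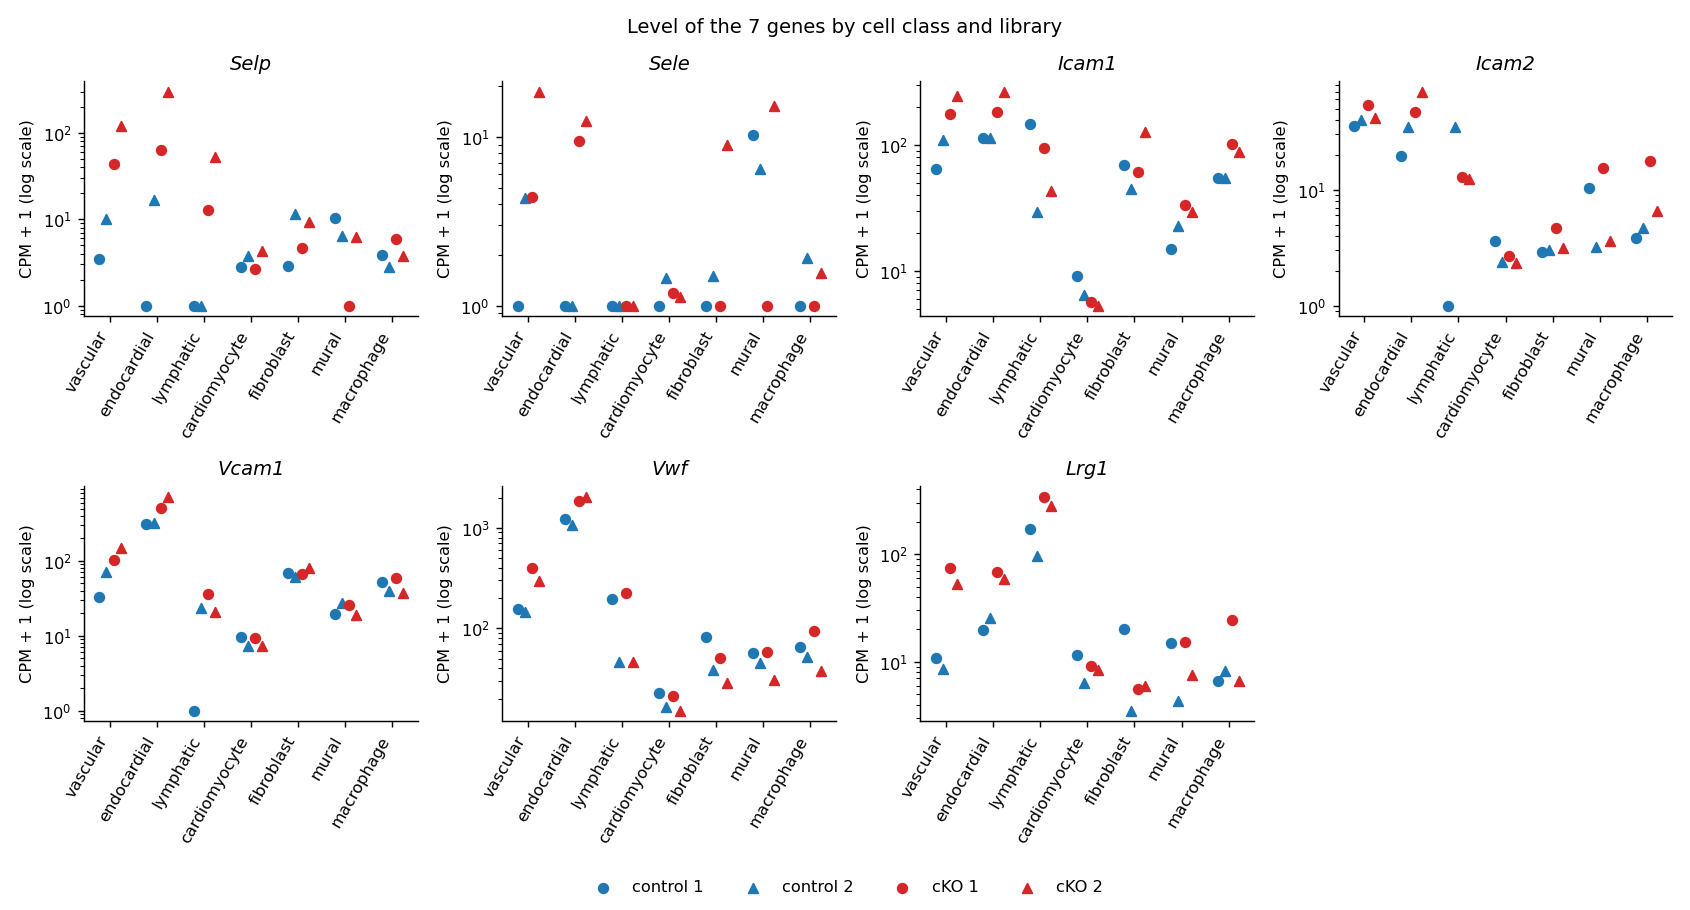
Level of each of the 7 genes (CPM + 1, log scale) in 7 cell classes. Each point is 1 library, blue for control and red for cKO, circles for replicate 1 and triangles for replicate 2. Vwf and Vcam1 are highest in endocardial nuclei and Lrg1 in lymphatic nuclei, and the red points of Selp and Lrg1 lie above the blue ones in all 3 endothelial classes.

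In vascular endothelium 4 of the 7 genes rose in the cKO libraries: Selp, Lrg1, Icam1 and Vwf. UMIs were summed per library and class and tested with edgeR's quasi-likelihood test, with Benjamini-Hochberg adjustment over all genes tested and a threshold of 0.05. Of the 7, Sele did not pass the filter on low counts, so the count is 4 of 6 tested and 0 lower. Among all 10709 genes tested in vascular nuclei, 0.775% were called higher and 2.86% lower. Both cKO libraries lay above both controls for 6 of the 6, which was so for 22.2% of the genes tested. Because the members passed this filter partly through the libraries in which they were high, these counts describe the list and do not test it.

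Selp showed the largest change. It measured 2.46 CPM in control 1 and 9.16 CPM in control 2 (1 and 11 UMIs), against 42.9 CPM in cKO 1 and 118 CPM in cKO 2 (50 and 384 UMIs). Both cKO libraries were far above both controls. The log2 fold change was 3.46 (SE 0.53, adjusted p = 0.00124), and it was called when any single library was left out, with values from 2.44 to 5.03.

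Sele, the neighbouring selectin gene, was counted 0 and 4 times in control 1 and control 2 and 4 and 57 times in cKO 1 and cKO 2. These UMIs gave 0, 3.33, 3.43 and 17.5 CPM, so only cKO 2 stood apart from control 2. With no filter on low counts the log2 fold change of Sele was 2.31 with an adjusted p of 0.0570.

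Icam1, which binds the integrins LFA-1 and Mac-1 of leukocytes, measured 64.0 and 109 CPM in control 1 and control 2 and 174 and 243 CPM in cKO 1 and cKO 2. The log2 fold change was 1.15 (SE 0.28, adjusted p = 0.0230). This call was lost without control 1 (0.89, adjusted p = 0.135) and without cKO 2 (0.84, adjusted p = 0.282).

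Vcam1 measured 32.0 and 70.0 CPM in the controls and 101 and 145 CPM in the cKO libraries. This difference, 1.10 on the log2 scale (SE 0.31), missed the threshold at an adjusted p of 0.0524, although Vcam1 was called without cKO 1 (adjusted p = 0.00519) and without control 2 (adjusted p = 0.00101). Icam2, the ligand kept on resting endothelium, measured 34.5 and 39.2 CPM in the controls and 52.3 and 40.9 CPM in the cKO libraries. This was a change of 0.22 on the log2 scale, within its error (SE 0.29, adjusted p = 0.846).

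Vwf rose from 155 and 144 CPM in control 1 and control 2 to 395 and 294 CPM in cKO 1 and cKO 2. The controls were close together and both cKO libraries lay well above them. The log2 fold change was 1.14 (SE 0.24, adjusted p = 0.00870), and without cKO 1 it was 0.97 with an adjusted p of 0.109.

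Lrg1 rose from 9.85 and 7.50 CPM in the controls to 73.8 and 52.0 CPM in the cKO libraries. These levels rested on 4 and 9 UMIs against 86 and 169 UMIs, and the groups were far apart. The log2 fold change was 2.84 (SE 0.40, adjusted p = 0.000834), with values from 2.59 to 3.05 and a call each time when 1 library was left out.

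**Figure D2:**
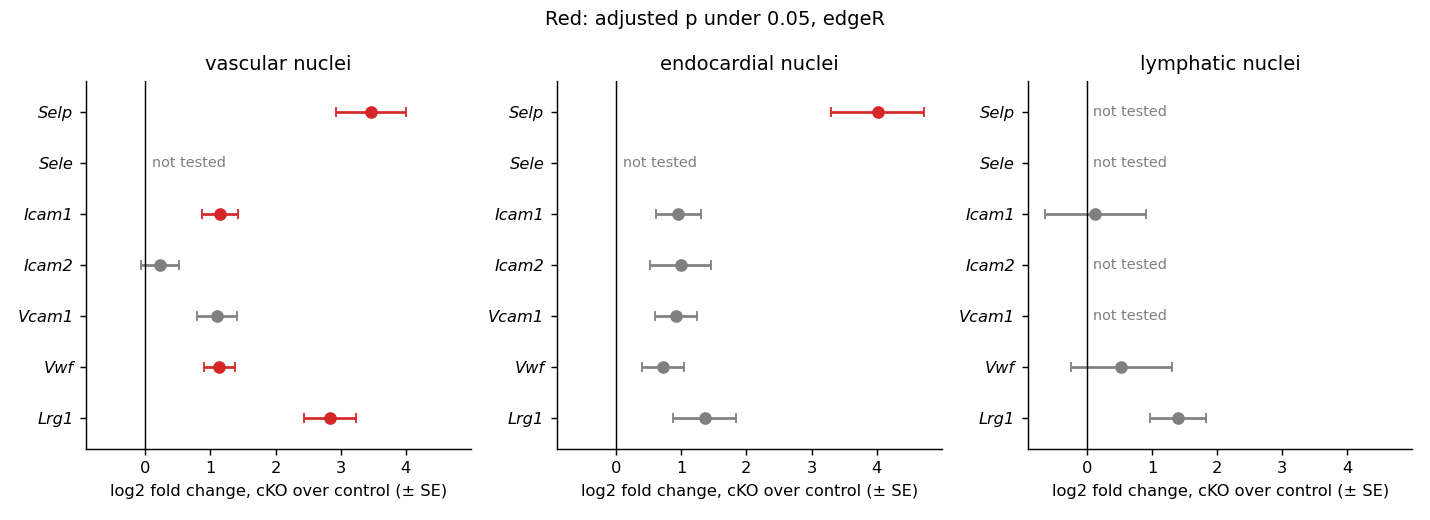
Log2 fold change, cKO over control, with a standard error derived from the F statistic of the test, for each of the 7 genes in the 3 endothelial classes. Red points passed the adjusted threshold of 0.05 in edgeR, grey points did not, and genes removed by the filter on low counts are marked as not tested. Selp is red in vascular and endocardial nuclei, and Lrg1, Vwf and Icam1 are red in vascular nuclei.

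Muscle RNA moved with the groups in the same nuclei. The summed level of 12 cardiomyocyte markers in vascular nuclei was 22153 and 14816 CPM in control 1 and control 2 and 8180 and 6788 CPM in cKO 1 and cKO 2, and 11 of the 12 were called lower. Markers of blood endothelium summed to 11704 and 12996 CPM in the controls and 17353 and 17228 CPM in the cKO libraries. None of these 14 markers was called, and their median log2 fold change was 0.42. When only vascular nuclei with at most 1% of UMIs from cardiomyocyte markers were kept, none of the 12 cardiomyocyte markers was called and their median log2 fold change was -0.15. In those nuclei the log2 fold change was 3.36 for Selp (adjusted p = 0.195), 2.77 for Lrg1 (adjusted p = 0.0523), 0.96 for Vwf (adjusted p = 0.262) and 0.80 for Icam1 (adjusted p = 0.565). None of the 4 was called there, among 9412 genes tested of which 5 were called in either direction. The restriction was chosen after the data were seen. Platelet and megakaryocyte markers summed to at most 17.5 CPM in vascular nuclei of any library.

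The vascular class consisted of 4 clusters, and the members were spread unevenly over them. Cluster 0 carried capillary markers (Car4, Cd300lg, Btnl9) and made up 74.2% and 67.9% of vascular nuclei in control 1 and control 2 and 64.7% and 51.4% in cKO 1 and cKO 2. Cluster 9 carried 4 of 5 venous and 4 of 7 capillary markers and was led by Kirrel3 and Col13a1, with shares of 21.1%, 26.5%, 26.5% and 32.5% in the same order. Cluster 14 carried 8 of 8 arterial markers, Gja5 among them, and cluster 15 was led by Cxcl9, Selp and Rnd1. Of the 198 nuclei of cluster 15, 193 came from cKO 2, 4 from cKO 1, 1 from control 2 and 0 from control 1, so it cannot be told apart from that library.

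Over the 4 libraries together cluster 9 held 80.6% of the Lrg1 UMIs and 79.4% of the Vwf UMIs of the vascular class. For Lrg1 this share was 86.0% and 81.1% in cKO 1 and cKO 2 but 25% of 4 UMIs and 44.4% of 9 UMIs in control 1 and control 2, where the rest lay in cluster 0. For Vwf it was 61.9% and 72.3% in the controls and 78.1% and 82.4% in the cKO libraries. In cluster 9 Lrg1 measured 10.0 and 10.8 CPM in control 1 and control 2, on 1 and 4 UMIs, against 208 and 122 CPM in cKO 1 and cKO 2. Within the cluster the log2 fold change reached 3.77, with an SE of 0.54 and an adjusted p of 8.02e-06. Vwf measured 392 and 336 CPM in the controls and 1013 and 701 CPM in the cKO libraries there (log2 fold change 1.16, SE 0.26, adjusted p = 0.00336).

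Selp in cluster 9 measured 10.0 and 13.5 CPM in the controls and 113 and 59.6 CPM in the cKO libraries. These levels rested on 1 and 5 UMIs against 40 and 67 UMIs, and 3 UMIs would make 30.1 CPM in control 1. The log2 fold change of Selp was 2.54 (SE 0.57, adjusted p = 0.00336). Icam1 in this cluster measured 30.1 and 151 CPM against 287 and 242 CPM and was not called (1.10, adjusted p = 0.0547). Its value in control 1 rested on 3 UMIs. Vcam1 measured 100.5 and 139.9 CPM against 172 and 191 CPM there, a log2 fold change of 0.43 (adjusted p = 0.613). These fits to single clusters were chosen after the data were seen.

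In the capillary-marker cluster 0 none of the 4 members that could be tested was called. Vwf measured 45.4 and 42.1 CPM in the controls and 100.4 and 63.8 CPM in the cKO libraries, Icam1 73.3 and 86.9 CPM against 100.4 and 80.4 CPM, and their log2 fold changes were 0.81 (adjusted p = 0.281) and 0.06 (adjusted p = 0.982). Vcam1 measured 10.5 and 19.8 CPM in the controls and 56.0 and 35.0 CPM in the cKO libraries of this cluster (1.31, SE 0.44, adjusted p = 0.149). Selp was counted 0 and 5 times in the controls and 0 and 8 times in the cKO libraries of cluster 0. In the arterial-marker cluster 14 Vwf measured 549 and 223 CPM in the controls and 253 and 230 CPM in the cKO libraries, with no call (-0.48, adjusted p = 0.997).

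**Figure D3:**
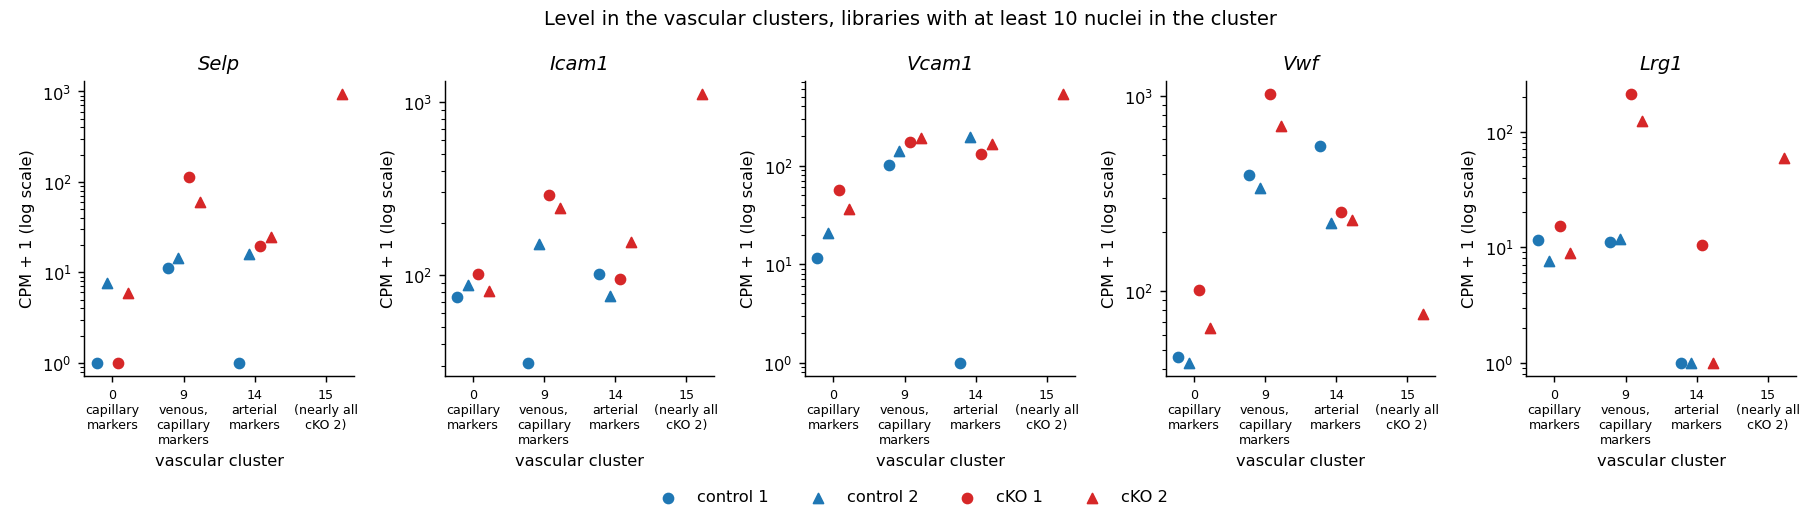
Level (CPM + 1, log scale) of 5 of the genes in each vascular cluster and library, for libraries with at least 10 nuclei in the cluster. Lrg1 and Vwf are highest in the cKO libraries of cluster 9, and cluster 15 has a point for cKO 2 alone.

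Over the 4 libraries together cluster 15 held 70.2% of the vascular Selp UMIs, 55.4% of Sele, 33.7% of Icam1 and 26.3% of Vcam1, but 1.81% of Vwf and 7.46% of Lrg1. For Selp its share was 79.4% in cKO 2, 16% in cKO 1 and 0% in both controls, and in cKO 1 cluster 9 held 80% of the Selp UMIs. All 4 Sele UMIs of cKO 1 were in cluster 9. In its cKO 2 nuclei Selp measured 926 CPM, Icam1 1102 CPM, Vcam1 525 CPM, Sele 109 CPM, Vwf 75.9 CPM and Lrg1 57.7 CPM. Without this cluster the vascular log2 fold change was 2.00 for Selp (adjusted p = 0.00924), 2.82 for Lrg1 (adjusted p = 6.96e-05), 1.19 for Vwf (adjusted p = 0.00186), 0.69 for Icam1 (adjusted p = 0.161) and 0.82 for Vcam1 (adjusted p = 0.106). Selp, Lrg1 and Vwf were thus called without it and Icam1 was not. This alternative was also chosen after the data were seen.

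Few vascular nuclei carried the Selp signal. A Selp UMI was found in 1 of 299 nuclei of control 1, 10 of 763 of control 2, 25 of 815 of cKO 1 and 63 of 1767 of cKO 2. In cKO 2, 15 nuclei with 5 or more Selp UMIs held 79.7% of them, up to 69 in 1 nucleus, while in control 2 no nucleus had more than 2.

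Nuclei with a Selp UMI held more of Vwf, Icam1, Vcam1, Lrg1 and Sele in both cKO libraries, but not of Icam2. Icam2 measured 40.6 CPM with and 52.8 CPM without a Selp UMI in cKO 1, and 7.47 and 42.3 CPM in cKO 2, on 2 and 1 UMIs in the Selp nuclei. In control 2 it measured 90.8 CPM with and 37.7 CPM without a Selp UMI, on 3 UMIs. These Icam2 counts were few and did not share a direction. Vwf measured 2172 CPM in cKO 1 nuclei with and 317 CPM in those without a Selp UMI, and 1046 and 262 CPM in cKO 2. For Icam1 the values were 812 and 146 CPM in the first library and 874 and 216 CPM in the second. Lrg1 was detected in 14 of the 25 Selp nuclei of cKO 1 and in 24 of the 63 of cKO 2. Selp nuclei were deeper than the others, with median UMI counts of 1964 against 1256.5 in cKO 1 and 2011 against 1662.5 in cKO 2. They also lay in few clusters: 92% in cluster 9 in cKO 1, and 54.0% in cluster 9 and 30.2% in cluster 15 in cKO 2. The parts of depth and of cluster in these values were not tested.

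After thinning to 1000 UMIs, the vascular shares with a Lrg1, Selp or Vwf UMI stayed higher in both cKO libraries than in both controls. The order of libraries within a group was not always kept. Thinning equalises depth and left out shallower nuclei (155 of 299, 637 of 763, 612 of 815 and 1652 of 1767 vascular nuclei stayed in control 1, control 2, cKO 1 and cKO 2). Lrg1 was then detected in 1.29% and 0.785% of vascular nuclei of control 1 and control 2 and in 6.70% and 3.81% of those of cKO 1 and cKO 2. The unthinned shares were 1.34% (exact 95% binomial interval 0.366% to 3.39%), 1.18% (0.541% to 2.23%), 8.10% (6.32% to 10.2%) and 6.73% (5.61% to 8.00%), and these intervals cover counting error only. In cardiomyocytes, given for comparison, 2.18% to 3.27% of nuclei had a Lrg1 UMI. Whether these UMIs were free RNA or the nuclei's own was not tested. Median depths were 3166.5 to 5291.5 UMIs in cardiomyocytes, against 1006 to 1673 UMIs in vascular nuclei. After thinning the cardiomyocyte shares were 0.414% to 1.31%, and the control vascular shares lay within this range and the cKO shares above it. Before thinning the control vascular shares lay below the cardiomyocyte range and the cKO shares above it. Thinning takes more UMIs from the deeper cardiomyocyte nuclei, so their thinned shares can understate free RNA in vascular nuclei.

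Selp after thinning was detected in 0.645% and 0.628% of control vascular nuclei and in 3.43% and 2.42% of cKO vascular nuclei, with 0.186% to 0.414% in cardiomyocytes. For Vwf the shares were 8.39% and 10.4% in the controls and 18.0% and 15.2% in the cKO libraries, with 1.45% to 2.55% in cardiomyocytes. Before thinning the cardiomyocyte shares were 0.487% to 0.901% for Selp and 5.94% to 7.34% for Vwf. The unthinned control vascular shares of Selp, 0.334% in control 1 and 1.31% in control 2, lay below and above the first of these ranges. The thinned ones, on 1 of 155 and 4 of 637 nuclei, lay above the thinned cardiomyocyte range but within the unthinned one. Icam1 set the groups less apart: control 2, at 10.0%, was close to cKO 1 at 11.4% and cKO 2 at 12.3%, and control 1 stood apart at 1.29% of 155 nuclei.

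**Figure D4:**
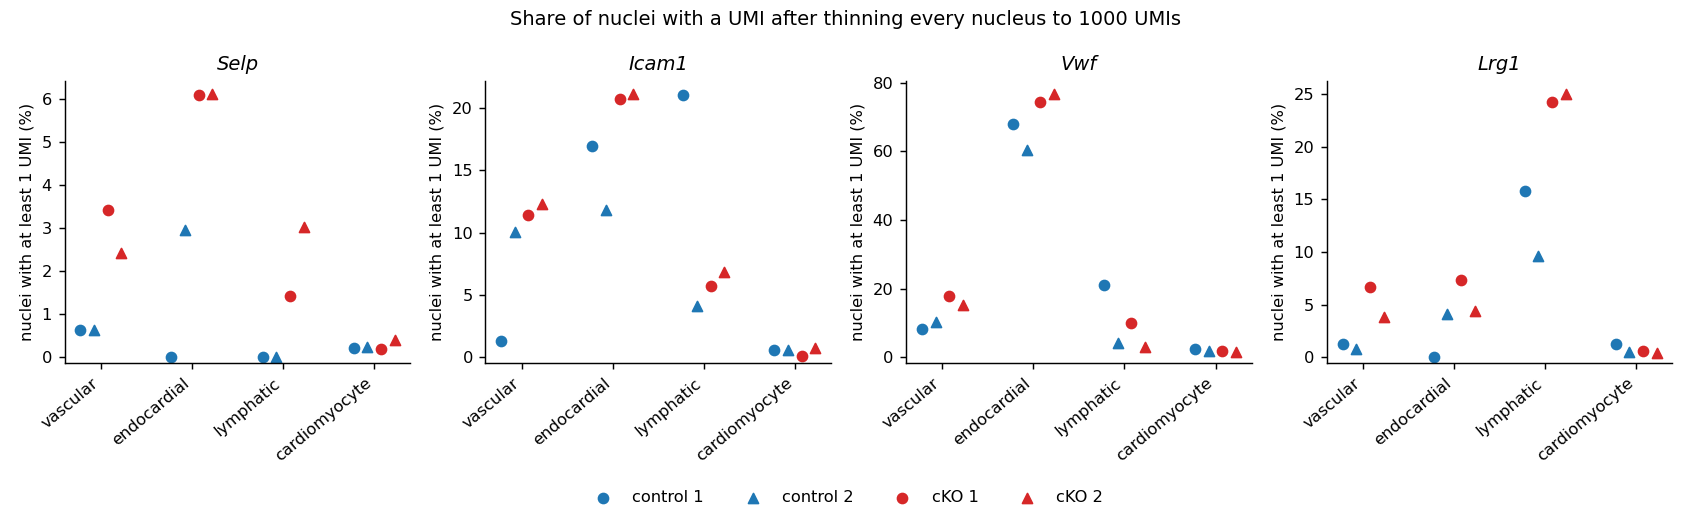
Share of nuclei with at least 1 UMI (%) after thinning every nucleus to 1000 UMIs, for 4 genes in the 3 endothelial classes and cardiomyocytes, 1 point per library. Cardiomyocytes are shown for comparison, at most 2.55% for Vwf after thinning, against at most 7.34% before it. The cKO points of Lrg1 and Selp in vascular nuclei lie above the control points.

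In endocardial nuclei Selp alone was called. It was counted 0 times in control 1, where 3 UMIs would make 18.7 CPM, and measured 15.7 CPM in control 2, 63.0 CPM in cKO 1 and 299 CPM in cKO 2. The log2 fold change was 4.01 (SE 0.71, adjusted p = 0.0451). Among the 6710 genes tested in endocardial nuclei 0.0745% were called higher, and Selp was 1 of 6 members tested. The call was lost without control 1 (3.53, adjusted p = 0.997) and without cKO 2 (2.46, adjusted p = 0.544). It was also lost among nuclei with at least 1000 UMIs (3.81, adjusted p = 0.0739), and DESeq2 gave Selp no adjusted p in this class.

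For all 6 tested members both endocardial cKO libraries lay above both controls, against 19.9% of the genes tested in this class. Vwf measured 1214 and 1058 CPM in control 1 and control 2 and 1857 and 2041 CPM in cKO 1 and cKO 2 (log2 fold change 0.72, SE 0.32, adjusted p = 0.493). Vcam1 measured 305 and 321 CPM against 508 and 719 CPM (0.92, SE 0.33, adjusted p = 0.333). Neither passed the adjusted threshold, with unadjusted p of 0.0384 and 0.0115.

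Icam1 in the endocardium measured 112 CPM in both controls and 181 and 264 CPM in the cKO libraries (log2 fold change 0.95, adjusted p = 0.341). Lrg1 measured 18.7 and 24.7 CPM against 67.2 and 57.5 CPM (1.36, adjusted p = 0.320), and Icam2 18.7 and 33.6 CPM against 46.2 and 69.0 CPM (0.99, adjusted p = 0.532). Sele was counted 0 times in both controls and 2 and 6 times in the cKO libraries. Muscle marker RNA in this class was 33238 and 25031 CPM in the controls and 25320 and 11348 CPM in the cKO libraries. The median log2 fold change of the blood endothelial markers was 0.46 here, and their part in the members' values was not tested.

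In lymphatic nuclei no member was called. Lrg1 measured 170.0 and 96.1 CPM in control 1 and control 2 and 341 and 281 CPM in cKO 1 and cKO 2, so both cKO libraries were above both controls. Its log2 fold change was 1.40 (SE 0.43) with an unadjusted p of 0.00560 and an adjusted p of 0.998. Of 4179 genes tested in this class 0% were called higher by edgeR, 138 had an unadjusted p under 0.05, and DESeq2 called none either.

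The other lymphatic values were small or uneven. Vwf measured 194 and 45.2 CPM in the controls and 223 and 45.4 CPM in the cKO libraries, so the groups overlapped. Icam1 measured 146 and 28.3 CPM against 94.0 and 42.6 CPM. Selp was counted 0 times in both controls and 2 and 18 times in cKO 1 and cKO 2, at least 2.78-fold higher over the pooled libraries when the controls are set to 3 UMIs. Control 1 held 26 lymphatic nuclei with 41182 UMIs, and 3 UMIs there make 72.8 CPM, so low levels were not detectable in it.

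Outside the endothelium none of the members was called in any class. In cardiomyocytes 0 of 6 were called (1.24% of all genes tested were called higher), in fibroblasts 0 of 4 (2.35%), in mural nuclei 0 of 3 (0.086%) and in macrophages 0 of 3 (0.779%). By unadjusted edgeR p, 1 fibroblast and 1 macrophage value were under 0.05, both of them Icam1, and DESeq2 also called 0 members in these classes.

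Icam1 in fibroblasts measured 68.8 and 43.8 CPM in the controls and 60.5 and 126 CPM in the cKO libraries (log2 fold change 0.84, SE 0.34, adjusted p = 0.268). A single fibroblast cluster of 109 nuclei, 102 of them from cKO 2, held 177 Icam1 UMIs at 910 CPM and 25 Sele UMIs at 129 CPM, and no Selp. In macrophages Icam1 measured 53.7 and 53.5 CPM in the controls and 100.2 and 87.3 CPM in the cKO libraries (0.76, SE 0.29, adjusted p = 0.262).

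The change in vascular nuclei was compared with that in each other class by the interaction of class and group, with the library as a block. Against cardiomyocytes 5 members changed more in vascular nuclei (1.72% of all genes did). The differences in log2 fold change were 3.53 for Selp, 2.77 for Lrg1, 1.76 for Icam1, 1.33 for Vwf and 1.19 for Vcam1, with adjusted p from 1.82e-08 to 0.00367. The call for Icam1 was lost without cKO 2 (1.38, adjusted p = 0.0694), and that for Vcam1 without control 1 (0.76, adjusted p = 0.271) and without cKO 2 (0.62, adjusted p = 0.787). Against fibroblasts 3 members changed more in vascular nuclei (2.29% of all genes did, and 658 of 12140 genes differed in either direction). These were Selp by 3.96 (SE 0.57), Lrg1 by 3.23 (SE 0.71) and Vwf by 1.66 (SE 0.28), while Icam1 differed by 0.20 (SE 0.29, adjusted p = 0.812). The call for Selp was lost without control 2 (3.38, adjusted p = 0.551) and that for Lrg1 without control 1 (2.04, adjusted p = 0.275).

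Between the endothelial classes no member's change was shown to differ. Against endocardial nuclei 0 members were called. Of all 8952 genes tested 9 were called in either direction, and 0.0223% were called larger in vascular nuclei. The differences were -0.47 (SE 0.75) for Selp, 0.45 (SE 0.24) for Vwf and 1.503 (SE 0.62, adjusted p = 0.686) for Lrg1. Against lymphatic nuclei 0 were called (0% of all genes), and Lrg1 differed by 1.43 (SE 0.58, adjusted p = 1). Against mural nuclei and macrophages 0 members were called. In either direction 72 of 11126 genes were called against mural nuclei and 61 of 12536 against macrophages. The shares called larger in vascular nuclei were 0.0809% and 0.279%. Selp differed from mural nuclei by 4.36 (SE 1.02, adjusted p = 0.0585). Selp against mural nuclei was called without TMM (adjusted p = 0.0320), without cKO 1 (adjusted p = 0.00590) and without control 2 (adjusted p = 0.0493). Without cKO 1 Vwf was also called against mural nuclei (adjusted p = 0.0428), and against macrophages so were Vcam1 (adjusted p = 0.00387), Vwf (adjusted p = 0.000262) and Lrg1 (adjusted p = 0.0155). Unadjusted edgeR p-values under 0.05 numbered 1 against endocardial, 1 against lymphatic, 4 against mural nuclei and 3 against macrophages, and no other tool was run on these differences.

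Genes that act with these 7 were read from 5 lists, 115 genes in all, of which 94 could be tested in vascular nuclei. Of these 12 were called higher and none lower, while among all 10709 genes tested 0.775% were called higher and 2.86% lower. Their median log2 fold change was 0.42, against 0.02 over all genes tested and 0.42 over the blood endothelial markers. The lists were chosen with earlier results of these data known, so these counts describe them and do not test them. The list of cytokine receptors and of NF-kB or STAT3 response genes had 7 of 31 tested members called. The 6 with the smallest p were Il4ra, an interleukin receptor chain, Bcl3 and Nfkbiz, nuclear IkB proteins, Socs3 and Cebpd, targets of STAT3, and Tnfrsf1b, a TNF receptor. The median over the list was 0.59.

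Il4ra measured 22.2 and 26.7 CPM in control 1 and control 2 and 65.2 and 77.5 CPM in cKO 1 and cKO 2 (log2 fold change 1.45, SE 0.30, adjusted p = 0.00810). Bcl3 measured 12.3 and 12.5 CPM against 27.5 and 55.0 CPM (1.74, adjusted p = 0.0274), and Socs3 7.39 and 7.50 CPM against 20.6 and 29.8 CPM (1.74, adjusted p = 0.0408). In all 3 the controls lay close together and below both cKO libraries. Nfkbiz (1.06, adjusted p = 0.0325), Cebpd (1.19, adjusted p = 0.0403) and Tnfrsf1b (1.38, adjusted p = 0.0433) were nearer the threshold. With each library left out in turn Il4ra was called in 3 of 4 fits, Bcl3, Socs3, Nfkbiz and Tnfrsf1b in 2 and Cebpd in 1. Without cluster 15, which came almost wholly from cKO 2, 6 of the 7 calls were lost and Tnfrsf1b alone was called (1.33, adjusted p = 0.0389). Il4ra was then at 1.05 (adjusted p = 0.0596), Bcl3 at 1.26 (adjusted p = 0.0820) and Socs3 at 1.06 (adjusted p = 0.366). Nfkbiz was at 0.75 (adjusted p = 0.151), Cebpd at 0.94 (adjusted p = 0.135) and Il6st, a cytokine receptor subunit and the seventh gene called, at 0.82 (adjusted p = 0.0676).

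The other lists had 1 or 2 calls each. Among leukocyte ligands and junctional adhesion genes 1 of 13 was called, F11r, a junctional adhesion molecule, at 78.8 and 112 CPM in the controls and 199 and 189 CPM in the cKO libraries (0.91, adjusted p = 0.0443). Among Weibel-Palade body and VWF processing genes 1 of 15 was called, Edn1, the precursor of endothelin, at 9.85 and 10.8 CPM against 37.7 and 31.4 CPM (1.62, adjusted p = 0.0263). The median over this list was 0.09, against 0.02 over all genes tested. Edn1 was also called in endocardial nuclei, at 56.0 and 26.9 CPM in the controls and 197 CPM in each cKO library (2.37, SE 0.41, adjusted p = 0.0451), a call made in 2 of 4 fits with 1 library left out.

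Of the TGF-beta receptor list, in which Lrg1 acts, 1 of 17 was called: Smad6, an inhibitor of the pathway, measured 34.5 and 59.1 CPM in the controls and 119 and 139 CPM in the cKO libraries (1.31, adjusted p = 0.00969). Of 18 transcription factor and quiescence genes 2 were called, Thbd, encoding thrombomodulin, at 51.7 and 45.8 CPM against 143 and 98.4 CPM (1.25, adjusted p = 0.0133), and Sox18 at 106 and 66.6 CPM against 234 and 138 CPM (1.09, adjusted p = 0.0423). In vascular nuclei with at most 1% cardiomyocyte marker UMIs none of the 12 genes was called. With each library left out in turn Smad6 was called in 3 of 4 fits, Thbd and Sox18 in 2, and F11r and Edn1 in 1. Without cluster 15 these 5 genes were called.

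Across the 28 profiles of 7 classes in 4 libraries, the genes whose log2(CPM + 1) profile was most like that of Selp were Rnd1 (Pearson r 0.75), Olr1 (0.70) and Ifi44 (0.68). Vwf was most like Atp1b3 (0.91), Bace2 (0.90) and Plagl1 (0.89), Vcam1 like Megf9, Cdh11 and Smpd3 (0.90 to 0.91), and Lrg1 like Crybb3, Rph3al and Gfod2 (0.86 to 0.87). Icam1 was most like Rps29 (0.92), Jcad (0.92) and Uhrf2 (0.91), and Icam2 like C130074G19Rik (0.93), Clec14a (0.90) and Tspan2 (0.88). These correlations describe profiles that share libraries and depth and carry no test.

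The size of the change is given over 15 alternative settings, 4 of which left out 1 library, and apart from these over the 5 that were chosen after the data were seen. Lrg1 was called in 15 and Selp in 14, with log2 fold changes from 2.51 to 3.14 and from 2.44 to 5.03. Vwf was called in 10, from 0.73 to 1.31, and Icam1 in 9, from 0.81 to 1.68, and none of the 15 turned the direction of these 4 genes. Of the 5 others, which limited muscle RNA or left out cluster 15, Lrg1 was called in 4, Selp and Vwf in 3 and Icam1 in 2, with the lowest log2 fold changes at 2.68, 1.80, 0.87 and 0.35. Selp lost its call without doublet removal (2.48, adjusted p = 0.0648).

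**Figure D5:**
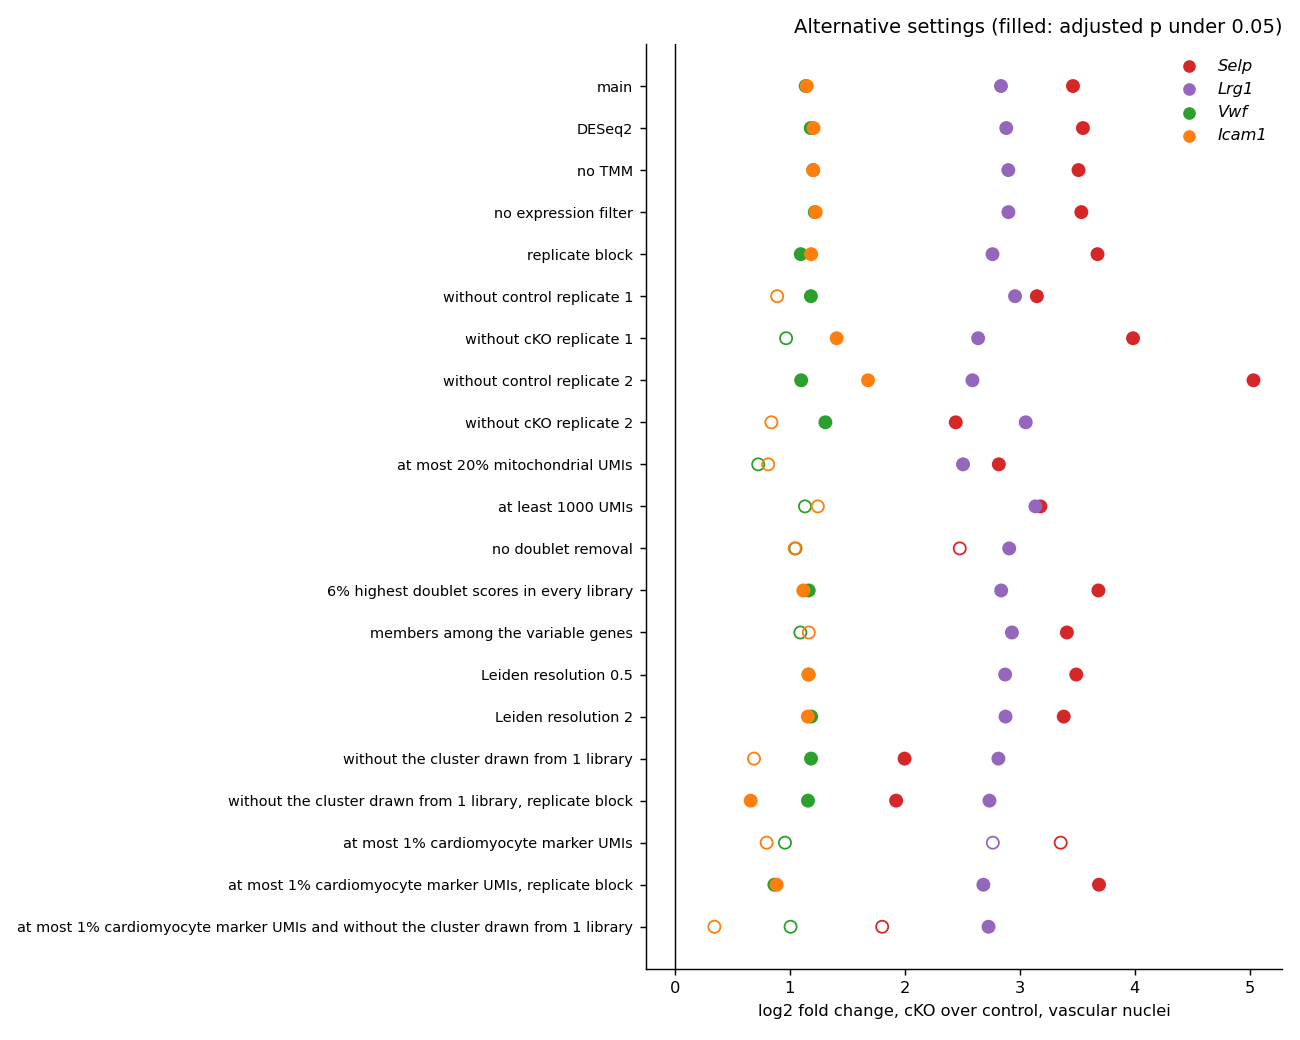
Log2 fold change in vascular nuclei of the 4 genes called higher, under the main setting and each alternative named on the vertical axis. Filled points passed the adjusted threshold of 0.05 and open points did not. Lrg1 stays between 2.51 and 3.14 in every setting, while Selp ranges from 1.80 to 5.03.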

How the data were processed

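Single-nucleus RNA was counted in 4 libraries. The authors deposited raw counts of UMIs for each gene in each barcode, as whole numbers. Reads were mapped to mm10, per the submitters' processing notes, and the sources used here name neither the aligner nor the use of introns or strand. The members and gene lists were chosen with earlier results of these data known.

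Barcodes with at least 300 genes, at least 500 UMIs and at most 5% mitochondrial UMIs were kept, after the top 0.5% of barcodes by UMIs were removed. Doublets were scored in each library: 12.9% were removed in cKO 2 by the automatic threshold, and the highest 6% of scores in the other 3 libraries, where that threshold marked at most 0.0312%. Nuclei were clustered with scanpy 1.11.5 (2000 variable genes without the 7 members, 30 components, Leiden resolution 1) into 26 clusters, and a cluster was named from at least 3 listed markers.

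UMIs were summed per library and class and tested with edgeR 4.0.16 (R 4.3.3; TMM, filterByExpr, quasi-likelihood F test, Benjamini-Hochberg over all genes tested). The SE given with an edgeR log2 fold change is its absolute value divided by the square root of the F statistic, so it adds nothing to the p-value. DESeq2 1.42.0 was an alternative. The edgeR test in vascular nuclei was checked on simulated data, and the other tests were not. CPM are UMIs per 1000000 UMIs of the class in a library. With 2 pools a group, p-values measure only the spread between these pools. Genes named outside the 7 were those past the threshold in vascular nuclei, up to 6 per list by smallest p, and the 3 genes most alike in profile to each member with a mean of at least 20 CPM in its highest class. Alternatives changed the scaling, filters, doublet removal, clustering, the replicate block and the libraries included.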

Additional observations from a re-analysis of the deposited data

Results flagged for a closer look

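The cKO effect differed between vascular nuclei and another class for 8 pairs of gene and class, by edgeR's test of the interaction. Against cardiomyocytes the log2 fold change was larger in vascular nuclei by 3.53 for Selp, 2.77 for Lrg1, 1.76 for Icam1, 1.33 for Vwf and 1.19 for Vcam1. Against fibroblasts it was larger by 3.96 for Selp, 3.23 for Lrg1 and 1.66 for Vwf. These genes measured at most 21.9 CPM in cardiomyocytes of any library, and the part of free RNA in the differences was not tested. Groups of 2 libraries are too small to test single libraries as outliers.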

How the results depend on the processing

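In vascular nuclei 389 genes were called in either direction. The count was 224 with DESeq2, 41 with up to 20% mitochondrial UMIs, 13 with at least 1000 UMIs, 10 without doublet removal, 11 with the members among the variable genes, and 195 to 474 when 1 library was left out. With at most 1% cardiomyocyte marker UMIs it was 5, and 7 when the cluster drawn from 1 library was also left out, where Lrg1 alone of the 4 genes was called (2.73, adjusted p = 0.0226). In endocardial nuclei 6 genes were called, against 32 with DESeq2, 11 without TMM, 35 without the expression filter, 46 with up to 20% mitochondrial UMIs, 0 with at least 1000 UMIs, 76 without doublet removal, 62 with 6% removed in every library, 21 with the members among the variable genes, 30 and 17 at Leiden resolutions 0.5 and 2, 25 with at most 1% cardiomyocyte marker UMIs, and 0 to 203 when 1 library was left out. In lymphatic nuclei the count of 0 became 11 with at most 1% mitochondrial UMIs, 2 without doublet removal and 0 to 20 when 1 library was left out. In the other classes 0 to 1 members were called when 1 library was left out, and 6 to 14 differences between classes against 8. The cause of these shifts was not tested. The median log2 fold change of all genes in vascular nuclei, 0.02, moved to -0.11 with DESeq2 and 0.15 without the expression filter.

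Same-numbered libraries share only a number in the labels, and their deviations from the group means correlated at 0.31 in vascular, 0.25 in endocardial and 0.12 in lymphatic nuclei. With a replicate block the counts were 1437 in vascular, 310 in endocardial and 3 in lymphatic nuclei, and 2 members in the other classes. The block gave 1362 without the cluster drawn from 1 library in vascular nuclei (1 member in fibroblasts), and with at most 1% cardiomyocyte marker UMIs 503 in vascular and 103 in endocardial nuclei. With the block Vcam1 was called in vascular nuclei (1.15, adjusted p = 4.72e-07). With the block and that limit Selp (3.69), Lrg1 (2.68), Vwf (0.87), Icam1 (0.89) and Vcam1 (0.91) were called there, with adjusted p from 2.25e-18 to 0.00142.

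In lymphatic nuclei the direction of Icam1 turned to -0.031 with DESeq2, -0.018 with the replicate block, -0.015 with at most 1% cardiomyocyte marker UMIs, -0.19 with that limit and the replicate block, and ran from -1.09 to 1.12 when 1 library was left out (-0.57 without cKO 1, -1.09 without control 2). That of Vwf ran from -0.99 (without cKO 1) to 1.37, with -0.58 without control 2. The limit of 1% mitochondrial UMIs was not run in vascular, endocardial and cardiomyocyte nuclei, which kept 4, 0 and 0 nuclei in their smallest library.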
